A study of Mus musculus with 10 samples.

Results

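The immunity-related GTPases are a family of GTP-binding proteins that mouse cells make when they sense interferon, and 6 of them are described here: Irgm1, Irgm2, Igtp, Iigp1, Tgtp1 and Tgtp2. They were taken by gene name from a table of expression values for intestinal epithelial cells (IECs) of WT and RhoB-/- mice, in which they are 6 of 55487 genes. All 6 were present in the table and all 6 were high enough on average to be tested.

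Interferon binds its receptor at the cell surface, Janus kinases phosphorylate STAT proteins, and the STAT complexes and interferon regulatory factors switch on target genes, this family among them. The family has a regulatory class and an effector class. The regulators Irgm1, Irgm2 and Igtp (Irgm3) sit on the cell's own membranes and hold the effectors in their inactive, GDP-bound state there, while the effectors, such as Iigp1 (Irga6), Tgtp1 and Tgtp2 (both Irgb6), load onto the vacuole around an invading parasite or bacterium and break it open. In the gut the family is known from infections with Toxoplasma and intracellular bacteria, and Irgm1 is the mouse relative of IRGM, a gene studied in Crohn's disease and in autophagy.

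RNA was sequenced from IECs released from the colon of 5 WT and 5 RhoB-/- mice, with 1 library per mouse, to ask what the loss of RhoB, a small GTPase, does to the epithelium. No treatment is named for the sequenced mice of either group. Both groups were on the C57BL/6J background, given in the methods as 6 to 8 weeks old unless stated otherwise. The RhoB-/- mice were a homozygous knockout for which no tissue-specific driver is named, made at a different centre from the one that sold the WT mice, and the sources used here do not say whether the sequenced mice were littermates, so that genotype and source of the mice cannot be told apart. Values are TPM, the usual length-corrected share of a library's transcripts, scaled so that every library has nearly the same total. Levels can therefore be set beside each other between genes, but TPM keeps no sequencing depth, and the read number behind a value is unknown.

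The targeted gene checks the labels. Rhob had a TPM of 170.52, 302.77, 364.92, 333.44 and 388.71 in WT replicates 1 to 5, and of 0.09, 0.10, 0.35 and 0.57 in RhoB-/- replicates 1 to 4. In the library labelled RhoB-/- replicate 5 it was 110.87, far above the other 4 and below every WT library. It was kept in its labelled group, and values without it are given beside the results. Epithelial markers were at high levels in both groups, with summed TPM of 26688 to 30738 in WT and 26517 to 43550 in RhoB-/- libraries over 12 genes such as Epcam, Krt8, Car1 and Muc2. Of these 12 genes, 2 were higher in RhoB-/- mice, Krt20 and Vil1, both genes of mature enterocytes, and without RhoB-/- replicate 5 only Krt20 was. Mitochondrial genes held 17.5% to 26.5% of the TPM in WT and 10.3% to 22.4% in RhoB-/- libraries.

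Short stretches of these genes show how the family is built. The first set is taken from the coding sequence of GENCODE release M21 transcripts and covers the GTP-binding motif near the start of the GTPase domain, with the codon that separates the 2 classes in capitals. It is ATG, for methionine, in the regulators (also called the GMS class) and AAG, for lysine, in the effectors (the GKS class). Iigp1 has AAG at that codon, and its stretch is not shown. Gm12250 (Irgb10), another effector gene, is added for comparison.
Irgm1, bases 247 to 270 of the reading frame: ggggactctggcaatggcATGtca
Irgm2, bases 247 to 270: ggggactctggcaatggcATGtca
Igtp, bases 271 to 294: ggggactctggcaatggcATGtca
Tgtp1, bases 187 to 210: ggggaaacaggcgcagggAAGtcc
Tgtp2, bases 187 to 210: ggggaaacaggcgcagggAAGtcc
Gm12250, bases 223 to 246: ggggagacaggggcagggAAGtcc
The stretch was identical in the 3 regulators and identical in Tgtp1 and Tgtp2. Over the whole coding sequence Tgtp1 and Tgtp2 shared 1244 of 1248 bases (99.68%), whereas the regulators shared 65.91% (Irgm1 and Irgm2), 67.79% (Irgm1 and Igtp) and 71.44% (Irgm2 and Igtp) of aligned bases. A read from the coding part of Tgtp1 can rarely be told from one of Tgtp2, so the split of reads between these 2 genes is uncertain.

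The second set is from the promoters, shown because the members moved together and because the family is known as a set of interferon targets. RefSeq promoters of 300 bases (250 before the start and 50 after it, assembly GRCm38.p6) were found for 5 of the 6 members. They were searched on both strands for GAAANNGAAA, the core of an interferon-stimulated response element, which interferon regulatory factors bind, and for TTCNNNGAA, the core of a gamma-activated site, which takes part in the response to interferon gamma. The windows below are 56 bases long and read in the direction of the gene, with the matches in capitals.
Irgm1, chr11:48871423-48871478, minus strand: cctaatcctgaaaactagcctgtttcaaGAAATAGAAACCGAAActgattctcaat
Irgm2, chr11:58214879-58214934, plus strand: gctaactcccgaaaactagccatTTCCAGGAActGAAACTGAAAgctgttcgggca
Igtp, chr11:58199488-58199543, plus strand: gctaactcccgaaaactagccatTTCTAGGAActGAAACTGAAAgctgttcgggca
Tgtp1, chr11:48992302-48992357, minus strand: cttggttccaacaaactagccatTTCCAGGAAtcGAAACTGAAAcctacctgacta
Tgtp2, chr11:49064261-49064316, minus strand: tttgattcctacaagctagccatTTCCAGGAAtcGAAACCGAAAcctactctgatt
Gm12250, chr11:58183763-58183818, plus strand: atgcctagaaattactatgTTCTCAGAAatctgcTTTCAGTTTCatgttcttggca
GAAANNGAAA was found in 5 of 5 member promoters, and in 1131 of all 32851 promoters of the same length (3.44%). Irgm1 held 2 overlapping matches to it. TTCNNNGAA was found in 4 of 5, all but Irgm1, and in 2726 of all promoters (8.30%), and both motifs together in 149 of all promoters (0.454%). In Irgm2, Igtp, Tgtp1 and Tgtp2 the 2 matches lay in the same order and spacing, with 2 bases between them. In Gm12250 the GAAANNGAAA match in the window reads on the opposite strand, and its promoter holds another one further upstream. A match is a description of the letters and does not show that a factor bound there, and the family genes are related by duplication, so their promoters are not independent of each other. The map of motif matches gives their distance from the start of each gene.

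**Figure D1:**
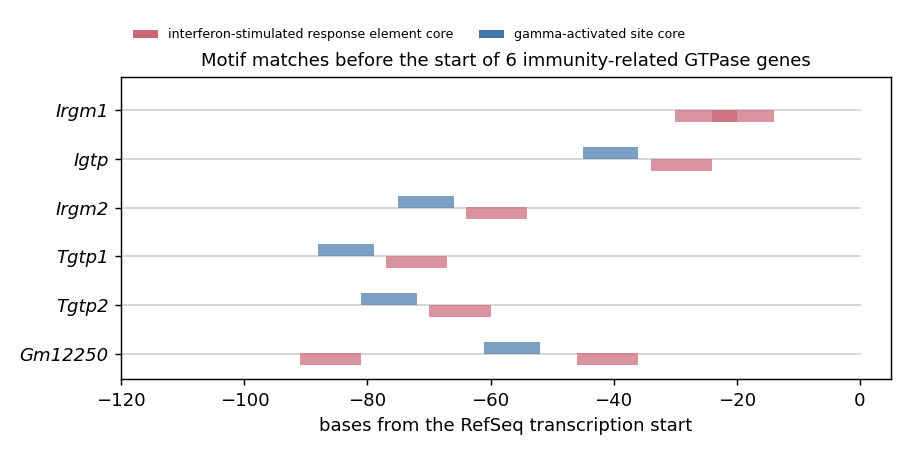
Position of motif matches in the promoters of 5 members and Gm12250. The x axis is the distance in bases from the RefSeq transcription start, red bars are matches to GAAANNGAAA and blue bars matches to TTCNNNGAA. Matches of the 5 members lie between 88 and 15 bases before the start, and the 2 motifs keep the same order and spacing in 4 of them.

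Irgm1 lies on the minus strand of chromosome 11 (chr11:48861968-48871683, GRCm38), in the same cluster as Tgtp1 (chr11:48985327-48994172, minus) and Tgtp2 (chr11:49057194-49064206, minus). Igtp (chr11:58199556-58207591, plus) and Irgm2 (chr11:58199618-58222782, plus) form a second cluster on that chromosome and overlap on the same strand in GENCODE, so reads from the shared stretch can be assigned to either. Iigp1 lies alone of the 6 on chromosome 18 (chr18:60376027-60392634, plus). Rhob is on chromosome 12, away from all of them.

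All 6 members rose in RhoB-/- IECs. The 3 regulators made up most of the family's transcripts in both genotypes and rose from 4.99-fold (Irgm1) to 9.85-fold (Igtp) by mean TPM. The 3 effectors were barely present in WT libraries, with mean TPM under 1, and reached mean TPM of 3.90 to 11.9 in RhoB-/- libraries. A gene was called higher when its adjusted p was below 0.05 in limma, over the 12870 genes whose TPM averaged 1 or more, and its fold change was above 1.5. By this rule 6 of 6 members were higher, beside 718 of all 12870 tested genes (5.58%). Fold changes below are of log2(TPM + 1), so that those of low genes come out too small, and p-values measure the spread between these mice. IEC preparations are mixtures, and more cells of a type and more RNA per cell cannot be told apart in them.

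Irgm1, the regulator that recruits autophagy proteins and protects mice from mycobacteria, was the most abundant member. Its TPM in WT replicates 1 to 5 was 15.70, 16.96, 18.70, 14.22 and 13.47. In RhoB-/- replicates 1 to 5 it was 71.49, 60.89, 86.71, 85.66 and 89.56. The lowest RhoB-/- library was more than 3 times the highest WT library. The means were 15.8 ± 2.10 and 78.9 ± 12.2 (SD, n = 5 each), which gave a log2 fold change of 2.24 with a standard error (SE) of 0.13 and an adjusted p of 5.40e-07.

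Irgm2, which sits mainly on the Golgi, was the most even member among RhoB-/- libraries, while Irgm1 was the most even in WT. WT replicates 1 to 5 had a TPM of 3.62, 4.56, 5.98, 3.17 and 3.45, and RhoB-/- replicates 1 to 5 had 28.02, 26.03, 29.23, 27.96 and 33.38. The RhoB-/- libraries lay close together, the highest only 1.28 times the lowest. The means were 4.16 ± 1.15 and 28.9 ± 2.74, with a log2 fold change of 2.56 (SE 0.14, adjusted p = 3.87e-07).

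Igtp, a regulator found on the endoplasmic reticulum and lipid droplets, was low in WT and second to Irgm1 in RhoB-/- mice. WT replicates 1 to 5 had a TPM of 3.91, 4.08, 10.02, 3.15 and 4.65, and RhoB-/- replicates 1 to 5 had 51.78, 32.31, 66.39, 45.28 and 58.54. WT replicate 3 stood above the other WT libraries but below every RhoB-/- library. The means were 5.16 ± 2.77 and 50.9 ± 13.0, with a log2 fold change of 3.13 (SE 0.26, adjusted p = 7.47e-06), the largest among the 6 on this scale.

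Iigp1, the effector that coats the Toxoplasma vacuole, was close to 0 in WT. Its TPM was 0.64, 0.19, 1.14, 0.10 and 0.27 in WT replicates 1 to 5 and 20.94, 3.28, 20.80, 5.59 and 9.12 in RhoB-/- replicates 1 to 5. RhoB-/- replicates 1 and 3 were high, replicates 2 and 4 low, and all of them exceeded every WT library. The means were 0.468 ± 0.428 and 11.9 ± 8.41, with a log2 fold change of 2.90 (SE 0.42, adjusted p = 0.000755).

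Tgtp1, an effector first described in T cells, had a TPM of 0.39, 0.15, 1.06, 0.26 and 0.38 in WT replicates 1 to 5. In RhoB-/- replicates 1 to 5 it had 7.81, 1.12, 11.42, 2.14 and 3.21. The groups only just failed to overlap, with 1.12 in RhoB-/- replicate 2 against 1.06 in WT replicate 3. The means were 0.448 ± 0.356 and 5.14 ± 4.34, with a log2 fold change of 1.81 (SE 0.42, adjusted p = 0.0119). Tgtp2, its near-identical copy, had a TPM of 0.51, 0.10, 0.82, 0.08 and 0.47 in WT and 4.73, 1.51, 7.08, 2.77 and 3.40 in RhoB-/- replicates 1 to 5. Every RhoB-/- library was above every WT library here too. The means were 0.396 ± 0.311 and 3.90 ± 2.12, with a log2 fold change of 1.73 (SE 0.29, adjusted p = 0.00205). With the 2 copies summed before the fit, which removes the question of how reads were split, the means were 0.844 ± 0.649 and 9.04 ± 6.44 and the log2 fold change was 2.26 (SE 0.41, adjusted p = 0.00301).

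**Figure D2:**
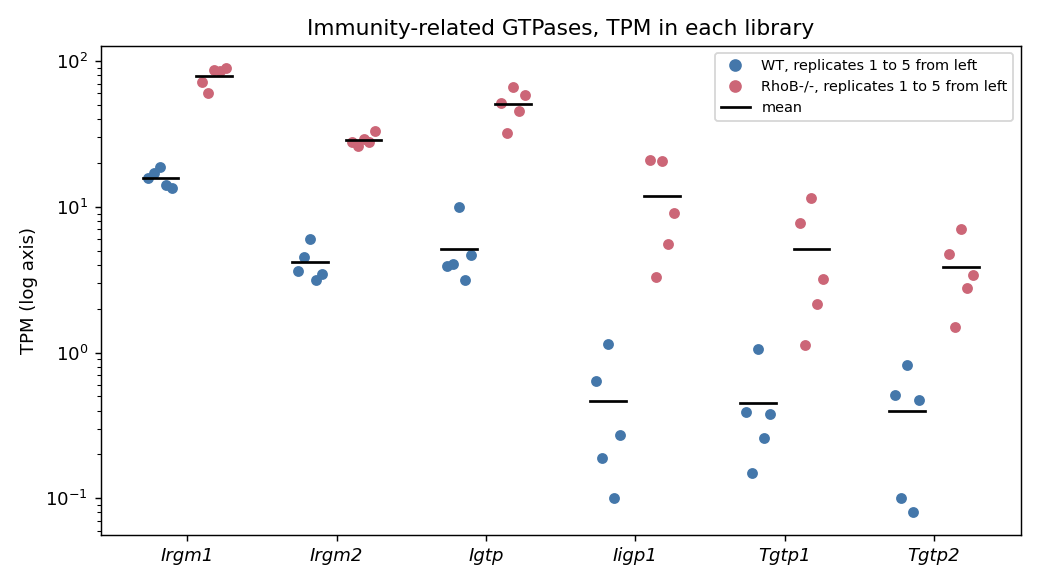
TPM of the 6 members in each library. The y axis is TPM on a log scale, points are libraries (replicates 1 to 5 from left to right within a group) and bars are group means. In each member the 5 RhoB-/- libraries lie above the 5 WT libraries, narrowly in Tgtp1 (1.12 against 1.06), and the spread among RhoB-/- libraries is widest in Iigp1, Tgtp1 and Tgtp2.

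Every RhoB-/- library was above every WT library in 6 of 6 members, as in 768 of all 12870 tested genes (5.97%). The exact permutation test over all labellings of the libraries gave p = 0.00794 for each member, two-sided, the smallest value that 5 against 5 allows. Iigp1, Tgtp1 and Tgtp2 had WT means under 1 TPM and passed the filter on low values only through their RhoB-/- libraries. Without that filter, over 28114 genes, of which 674 (2.40%) were then called higher, their adjusted p was 0.00613, 0.0408 and 0.00971, and the 3 regulators had 1.22e-05 (Irgm1), 1.22e-05 (Irgm2) and 0.000183 (Igtp). Leaving out the library labelled RhoB-/- replicate 5, the log2 fold changes were 2.19 (Irgm1), 2.51 (Irgm2), 3.07 (Igtp), 2.92 (Iigp1), 1.87 (Tgtp1) and 1.74 (Tgtp2), all still called. The fold changes of the low genes depend on the pseudocount. With 0.1 in place of 1 they were 4.38 (Iigp1), 3.01 (Tgtp1) and 3.11 (Tgtp2), so the order of the members by fold change differed between the 2 pseudocounts. The median log2 fold change of all tested genes was -0.13, and centring each library on its median put the 6 members between 1.84 and 3.24.

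Summed over the 6 members, TPM ran from 20.98 to 37.72 in WT mice, with a median of 24.77, and from 125.14 to 221.63 in RhoB-/- mice, with a median of 184.77. The shares of the members in that sum were not tested. Irgm1 held on average 61.0% ± 7.10 of that sum in WT and 44.5% ± 5.42 in RhoB-/- mice (SD, n = 5 each), while Igtp held 18.7% ± 4.91 and 28.0% ± 1.80. Iigp1 held 1.60% ± 1.14 and 6.25% ± 3.88. The libraries of the 2 genotypes overlapped in each of these 3 shares. Without RhoB-/- replicate 5 the RhoB-/- means were 44.3% (Irgm1), 27.6% (Igtp) and 6.66% (Iigp1). Regulators accounted for 92.0% to 98.3% of the sum in WT and for 81.9% to 95.3% in RhoB-/- libraries, and these ranges overlapped.

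Whether members rose by different amounts was tested on the log2 ratio of TPM + 1 of each pair of members within a library, compared between genotypes by a two-sided exact permutation test with p-values adjusted over the 15 pairs. Among the effectors, the ratio of Iigp1 to either Tgtp gene was higher in RhoB-/- mice. By mean TPM Iigp1 rose 25.5-fold, but from a WT mean of only 0.468. The Tgtp genes also had WT means under 1 TPM, and at such levels the added 1 draws the WT ratios towards 0. The Iigp1 to Tgtp1 ratio was 0.01 ± 0.17 in WT and 1.10 ± 0.20 in RhoB-/- mice, a difference of 1.09 (SE 0.12, adjusted p = 0.0298). The Iigp1 to Tgtp2 ratio was 0.06 ± 0.17 and 1.23 ± 0.48, a difference of 1.17 (SE 0.23, adjusted p = 0.0298). Both held in all 12 alternatives run, which were a pseudocount of 0.1, quantile normalization and each library left out in turn. All of these kept the 2 Tgtp genes apart, though the split of reads between them is uncertain. Summed, the 2 Tgtp genes had a log2 fold change of 2.26 (SE 0.41), beside 2.90 (SE 0.42) for Iigp1. The ratio of Iigp1 to that sum was not tested.

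The ratio of Igtp to Tgtp1 (difference 1.31, SE 0.36) and to Tgtp2 (1.40, SE 0.21) also passed with a pseudocount of 1, each with adjusted p = 0.0298 in the exact test, but these 2 differences depend on that pseudocount. By mean TPM the rise was 9.85-fold for Igtp, 11.5-fold for Tgtp1 and 9.84-fold for Tgtp2. The Igtp to Tgtp1 difference passed in 6 of 12 alternatives and the Igtp to Tgtp2 difference in 11 of 12, and with a pseudocount of 0.1 they were 0.35 (adjusted p = 0.649) and 0.24 (adjusted p = 0.650). Leaving out any 1 WT library also ended the Igtp to Tgtp1 call, at adjusted p from 0.0510 without replicate 3 to 0.0952 without replicate 1 or 4. The other 11 pairs did not pass. Within the regulators Irgm1 against Igtp was -0.88 (SE 0.22) and Irgm1 against Irgm2 was -0.32 (SE 0.10), both with adjusted p = 0.0595, and without WT replicate 3 both passed, at -1.06 (adjusted p = 0.0298) and -0.37 (adjusted p = 0.0476). The second pair also passed with a pseudocount of 0.1 (-0.50, adjusted p = 0.0397) and after quantile normalization (-0.39, adjusted p = 0.0476). Irgm2 against Igtp passed without RhoB-/- replicate 2 (-0.68, adjusted p = 0.0476), and Irgm2 against Tgtp2 without RhoB-/- replicate 3 (1.03, adjusted p = 0.0238). Tgtp1 and Tgtp2 differed by 0.08 (SE 0.21, adjusted p = 0.683).

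Among the RhoB-/- mice themselves the members differed in spread. The highest RhoB-/- library was 1.47 times the lowest for Irgm1, 1.28 times for Irgm2 and 2.05 times for Igtp, but 6.38 times for Iigp1, 10.2 times for Tgtp1 and 4.69 times for Tgtp2. In WT libraries the effectors were also the more uneven, at mean TPM under 1. The WT ratios were 1.39 (Irgm1), 1.89 (Irgm2), 3.18 (Igtp), 11.4 (Iigp1), 7.07 (Tgtp1) and 10.25 (Tgtp2). RhoB-/- replicate 2 was lowest for all 6 members. RhoB-/- replicate 3 was highest for Igtp, Tgtp1 and Tgtp2 and close to the highest for Iigp1, while RhoB-/- replicate 5 was highest for Irgm1 and Irgm2. The share of mitochondrial genes in the TPM was 19.4%, 22.4%, 10.3%, 17.1% and 12.1% in RhoB-/- replicates 1 to 5, highest in the library where the members were lowest and lowest in the one with the highest family sum. In WT the highest share, 26.5%, was in replicate 1, whose family sum of 24.77 was the WT median. WT replicate 4 had the lowest family sum, 20.98, with a share of 18.2%. The part of the mitochondrial share in the spread was not tested.

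**Figure D3:**
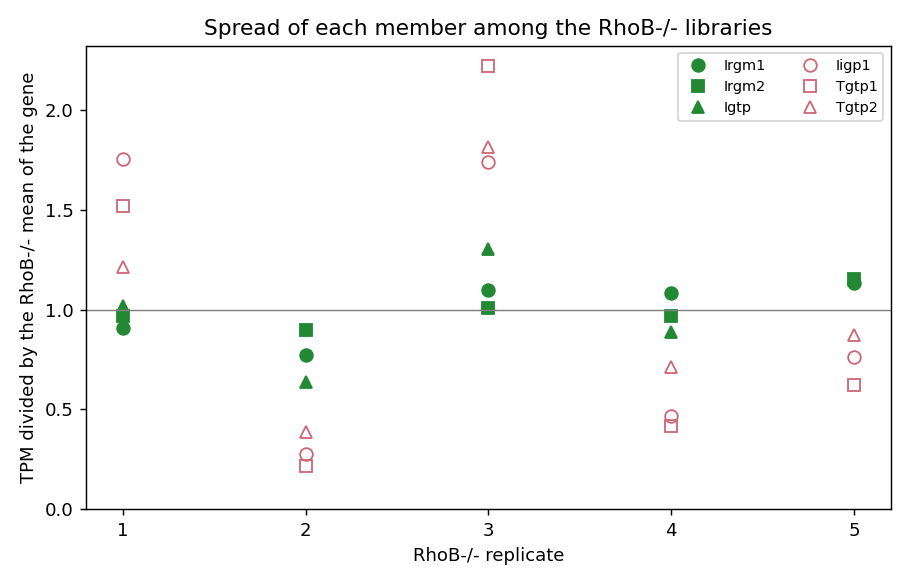
TPM of each member in each RhoB-/- library, divided by the mean of that member over the 5 RhoB-/- libraries. Filled symbols are the regulators Irgm1, Irgm2 and Igtp, open symbols the effectors Iigp1, Tgtp1 and Tgtp2. RhoB-/- replicates 1 and 3 are the 2 highest for each of the 3 effectors and replicate 2 the lowest for all 6 members.

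To follow the members together, the deviation of each library from its genotype mean, on the log2(TPM + 1) scale, was correlated between members over the 10 libraries, with an exact permutation test within genotypes (14400 arrangements) and adjustment over 15 pairs. The 3 effectors moved closely together. Iigp1 and Tgtp1 gave Pearson's r = 0.97 (permutation p = 0.000694, adjusted 0.00347) and a Spearman rank correlation of 0.93 (permutation p = 0.00500, adjusted 0.0187). Iigp1 and Tgtp2 gave r = 0.94 (permutation p = 0.000208, adjusted 0.00156) and a rank correlation of 0.92 (permutation p = 0.00111, adjusted 0.00556). Without the 2 libraries farthest from the median deviation of the first-named gene, here Iigp1, r was 0.96 and 0.95. The first-named gene set this choice below too. It kept RhoB-/- replicate 3, with deviations of 1.03 (Iigp1), 1.32 (Tgtp1) and 0.83 (Tgtp2), so these r values still rest in part on an extreme library. Iigp1 and the Tgtp genes lie on different chromosomes and shared 61.31% (Tgtp1) and 61.14% (Tgtp2) of aligned coding bases. Tgtp1 and Tgtp2 gave r = 0.95 (permutation p = 0.000208, adjusted 0.00156), but in these near-identical copies a shared level and shared reads cannot be told apart.

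Irgm1 and Irgm2 also moved together, with r = 0.76 (permutation p = 0.00222, adjusted 0.00688) and a rank correlation of 0.87 (permutation p = 0.000764, adjusted 0.00556), and r = 0.81 without the 2 farthest libraries. Irgm2 and Igtp, which overlap in the genome, gave r = 0.82 (permutation p = 0.00806, adjusted 0.0151) and a rank correlation of 0.73 (permutation p = 0.0190, adjusted 0.0408), which fell to r = 0.50 without the 2 farthest libraries. Igtp followed Tgtp2 with r = 0.77 (permutation p = 0.00229, adjusted 0.00688) and a rank correlation of 0.82 (permutation p = 0.00625, adjusted 0.0187), and r = 0.76 without the 2 farthest. Igtp and Iigp1 gave r = 0.70 (permutation p = 0.00729, adjusted 0.0151) and a rank correlation of 0.73 (permutation p = 0.0170, adjusted 0.0408), with r = 0.62 without the 2 farthest. Igtp and Tgtp1 gave r = 0.68 (permutation p = 0.00694, adjusted 0.0151), though their rank correlation of 0.64 did not pass (permutation p = 0.0510, adjusted 0.0851), with r = 0.62 without the 2 farthest. Irgm1 and Igtp gave r = 0.72 (permutation p = 0.0188, adjusted 0.0314) and a rank correlation of 0.76 (permutation p = 0.0239, adjusted 0.0448), with r = 0.70 without the 2 farthest. Igtp thus moved with members of both classes. No relation passed the test between Irgm1 or Irgm2 and the 3 effectors, where r ranged from 0.29 (Irgm2 and Tgtp1, permutation p = 0.233) to 0.51 (Irgm1 and Tgtp2, permutation p = 0.198). With 10 libraries these values do not show that the 2 groups vary apart. Without RhoB-/- replicate 5, r was 0.98 (Iigp1 and Tgtp1), 0.94 (Iigp1 and Tgtp2), 0.72 (Irgm1 and Irgm2), 0.82 (Irgm2 and Igtp) and 0.80 (Igtp and Tgtp2) over 9 libraries.

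The genes outside the members whose deviations were most like the mean deviation of the 6 members over the 10 libraries were Commd10 (r = 0.95), Crlf2 (r = 0.92), H2-Eb1 (r = 0.91), Icam1 (r = 0.91) and Tap1 (r = 0.91), the 5 highest of all tested genes. Without RhoB-/- replicate 5, r was 0.91 to 0.95 for them, over 9 of the same 10 libraries. Because these genes were picked for their r among all tested genes, high values follow from the choice, and they were not tested. Some of them rose and some did not. H2-Eb1, a chain of the class II molecule that presents antigen to T cells, had 2.59 ± 1.37 TPM in WT and 124.04, 2.85, 218.23, 6.47 and 36.39 TPM in RhoB-/- replicates 1 to 5, the same order of libraries as for Tgtp1. Tap1, which carries peptides to class I molecules, rose from 8.95 ± 0.85 to 48.4 ± 13.2 TPM (log2 fold change 2.27, SE 0.17, adjusted p = 3.24e-06). Commd10 was 25.1 ± 1.14 and 21.1 ± 3.37 TPM and was not called (log2 fold change -0.25, adjusted p = 0.127).

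Other genes of the family were looked up from a list of 17 names, of which 10 were in the table. Of the 3 that could be tested, 2 were higher, both with WT means under 1 TPM, and without the filter 4 of 10 were. Gm12250 (Irgb10), an effector that acts on bacterial membranes and is annotated as a processed pseudogene in GENCODE M21, had a TPM of 0.56, 0.53, 1.48, 0.23 and 0.78 in WT and 15.34, 15.62, 21.01, 18.61 and 23.02 in RhoB-/- replicates 1 to 5. Its log2 fold change was 3.55 (SE 0.19, adjusted p = 2.65e-07), and unlike the effectors among the 6 members its RhoB-/- libraries lay close together. Gm5431, a family gene between Irgm1 and Tgtp1, rose from 0.806 ± 0.365 to 17.3 ± 4.23 TPM (log2 fold change 3.33, SE 0.18, adjusted p = 2.94e-07). Irgq, a distant relative that interferon is not known to induce, was 6.57 ± 1.27 and 7.35 ± 0.77 TPM and was not called (log2 fold change 0.15, adjusted p = 0.422).

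The remaining 7 were below the filter, with mean TPM under 2 in both groups. Gm4951, 9930111J21Rik1 and 9930111J21Rik2 had every RhoB-/- library above every WT library, each with p = 0.00794 in the exact permutation test. Gm4841 (p = 0.0159) and F830016B08Rik (p = 0.0397) had higher means in RhoB-/- mice with overlapping libraries in the same exact test. BC023105 (exact p = 0.190) and Irgc1 (exact p = 0.865), a gene of the testis, did not pass. Gm4951 ranked the RhoB-/- libraries as Tgtp1 and Tgtp2 did, with 2.19, 0.21, 2.75, 0.57 and 1.61 TPM in RhoB-/- replicates 1 to 5.

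The interferons themselves were at or near 0. Of 21 interferon genes, 18 were listed at 0 in every library and none reached the filter. Ifng, the main inducer of this family, was 0.17 to 1.17 TPM in WT and 0.19 to 1.13 TPM in RhoB-/- libraries (exact permutation p = 0.540). Ifnk, the interferon of keratinocytes, was at 0 in the WT libraries and at 0.44, 0.10, 0, 0.22 and 0.13 TPM in RhoB-/- replicates 1 to 5 (exact permutation p = 0.0476). These are levels in the epithelial preparation only, and the depth behind values this low is unknown.

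Of 25 genes of interferon receptors and signalling, 9 were higher and none lower, and the median log2 fold change was 0.52 against -0.13 for all tested genes, of which 7.13% were lower. The receptor chains for interferon gamma were modestly higher, both short of the fold threshold. Ifngr1 went from 117 ± 19.0 to 164 ± 28.1 TPM (log2 fold change 0.48, adjusted p = 0.0403), with overlapping groups. Ifngr2 went from 35.7 ± 5.16 to 51.4 ± 5.94 TPM (0.52, adjusted p = 0.0123), with every RhoB-/- library above every WT library. Another receptor chain, Ifnlr1, was called higher, from 3.55 ± 0.64 to 6.47 ± 1.68 TPM (log2 fold change 0.70, SE 0.16, adjusted p = 0.0118). The receptor chains Ifnar1, Ifnar2 and Il10rb were not called. The kinases were Jak1 at 0.06 (adjusted p = 0.718) and Jak2 at 0.52 (adjusted p = 0.0195, short of the fold threshold). For Jak2 too, every RhoB-/- library was above every WT library. With each library centred on its median, Ifngr1, Ifngr2 and Jak2 passed both thresholds.

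Irf1, the factor that interferon gamma induces first, rose from 78.0 ± 19.3 to 122 ± 21.2 TPM (log2 fold change 0.66, SE 0.18, adjusted p = 0.0221), with overlapping groups. This call was lost without the filter (adjusted p = 0.0532), at a fold change above 2, and when RhoB-/- replicate 1 (adjusted p = 0.0540), RhoB-/- replicate 5 (0.0546), WT replicate 2 (0.0501) or WT replicate 4 (0.0616) was left out, and without WT replicate 1 its log2 fold change of 0.56 was under the fold threshold. The 4 largest changes in the list were larger than those of the receptors and kinases. They were Usp18 (4.25), which shuts down type I receptors, Nlrc5 (3.10), the activator of class I genes, Irf7 (3.05) and Stat2 (2.03).

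**Figure D4:**
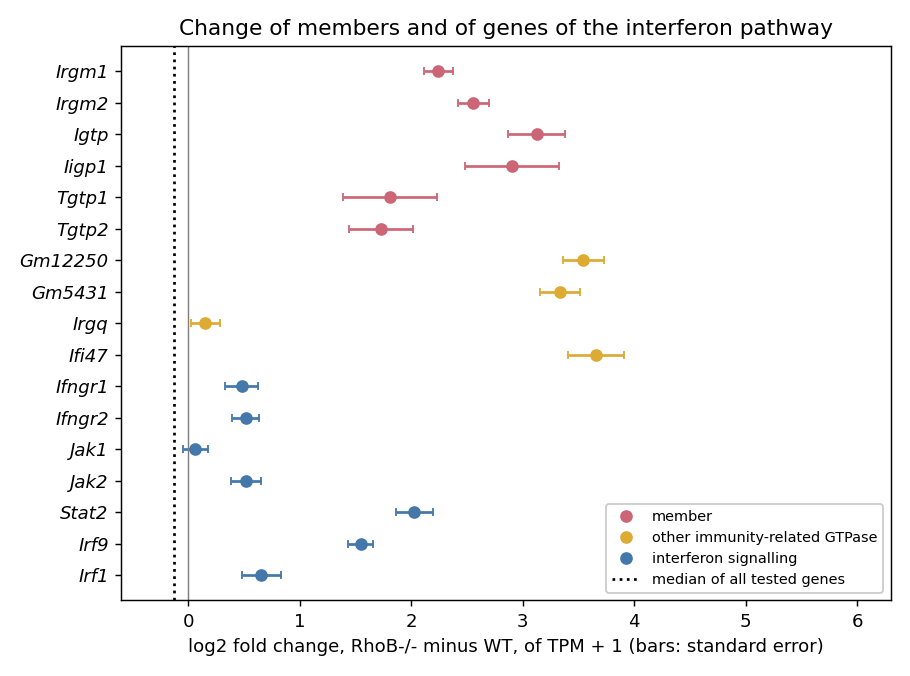
Log2 fold change (RhoB-/- minus WT, of TPM + 1) with its standard error for the 6 members (red), 3 other family genes and Ifi47 (yellow), and genes of interferon signalling (blue). The dotted line is the median of all tested genes (-0.13). The members lie between 1.73 and 3.13, and Ifngr1, Ifngr2, Jak1 and Jak2 between 0.06 and 0.52.

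Guanylate-binding proteins, larger interferon-induced GTPases that act on the same vacuoles, rose with the family. Of 11, 6 were tested and 6 were higher, with a median log2 fold change of 2.13. Gbp2b, Gbp3 and Gbp8 had WT means under 1 TPM and passed the filter only through their RhoB-/- libraries. Without the filter 9 of 11 were higher. The largest were Gbp3 (3.11), Gbp6 (2.40), Gbp2 (2.20) and Gbp2b (2.06). Autophagy genes and other genes of vacuole targeting mostly did not pass. Of 32 tested, 4 were higher and none lower, with a median of 0.07. The core conjugation genes Atg3, Atg5 and Atg16l1 were not called. Atg7, the enzyme that starts the conjugation, went from 10.2 ± 1.64 to 7.36 ± 0.41 TPM (log2 fold change -0.41, adjusted p = 0.0267), with every RhoB-/- library below every WT library, and was short only of the fold threshold. The 4 that rose were Lgals9 (2.26) and Lgals8 (0.62), galectins that bind sugars on broken vacuoles, the ubiquitin ligase Trim21 (0.87), and the receptor Optn (0.86). Without the library labelled RhoB-/- replicate 5, Lgals8 was at 0.56, under the fold threshold.

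Interferon targets outside the family were read in 2 lists, which overlap in how they are induced. Like the other lists, both were chosen with earlier results of these data known, so high counts can follow from that choice. Of 26 antiviral genes known best from type I and III interferons, 26 were higher, also without the filter, with a median log2 fold change of 3.13. They were led by Ifi27l2a (6.47), Isg15 (5.43), Oasl2 (4.92) and Oas3 (4.65). Of 18 tested genes that lean to interferon gamma, 14 were higher (10 of 19 without the filter, and 12 of 18 without RhoB-/- replicate 5), with a median of 1.89, led by the class II genes Cd74 (4.29), H2-Aa (3.82), H2-Eb1 (3.20) and H2-Ab1 (3.13). Cxcl10, a chemokine target of interferon gamma, was 6.33 ± 3.60 and 3.55 ± 0.57 TPM (log2 fold change -0.56, adjusted p = 0.159). The class II genes varied far more than the members. Cd74, the invariant chain, had 876.02, 14.00, 1390.66, 36.06 and 223.74 TPM in RhoB-/- replicates 1 to 5, with replicates 1 and 3 high and 2 and 4 low as for the effectors. All 4 class II genes lost their call without the filter (adjusted p from 0.0510 to 0.0930), and 2 of them lost it with single libraries left out. These were H2-Aa without RhoB-/- replicate 1 or 5 or WT replicate 2, 3 or 4 (adjusted p from 0.0519 to 0.0723), and H2-Eb1 without RhoB-/- replicate 1 or 5 or WT replicate 1, 2, 4 or 5 (0.0522 to 0.0785).

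**Figure D5:**
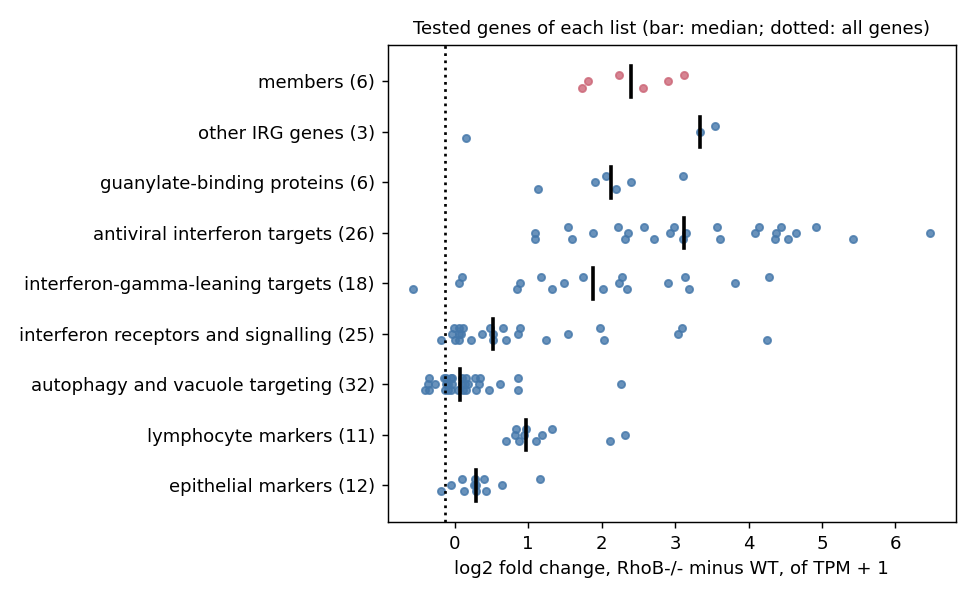
Log2 fold change (RhoB-/- minus WT, of TPM + 1) of the tested genes of each list, with the number tested in brackets. Each point is a gene, the short bar is the list's median and the dotted line the median of all tested genes (-0.13). The members (median 2.40), GBPs (2.13) and antiviral targets (3.13) lie to the right, while autophagy genes centre on 0.07.

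Markers of immune cells moved with genotype too. Of 11 tested lymphocyte markers 9 were higher, and their summed TPM over 22 genes was 18.96 to 40.40 in WT and 82.30 to 95.38 in RhoB-/- libraries. They were led by Gzma, from 4.23 ± 1.87 to 24.0 ± 2.25 TPM, and Gzmb, from 2.54 ± 1.13 to 13.8 ± 2.54 TPM, granzymes of cytotoxic cells that include the lymphocytes lodged in the epithelium. Cd4 was at or near 0 in both groups, and Ncr1 and Mzb1 were at 0 in WT. The genes of this list varied differently among RhoB-/- libraries. Gzma was 22.68, 27.29, 25.27, 21.86 and 22.78 TPM in RhoB-/- replicates 1 to 5, whereas Cd79a, a B cell gene, was 0.52, 0.09, 1.96, 0.59 and 6.09 TPM, lowest in replicate 2 as the members were and highest in replicate 5. Of 6 tested myeloid markers 2 were higher, Cd68 and Tyrobp, with sums over 16 genes of 21.73 to 33.56 and 26.73 to 60.05 TPM, and RhoB-/- replicate 2 had the lowest sum of its group. Of 4 stromal markers 2 were higher, Dcn and Vim, with sums over 14 genes of 11.84 to 14.61 and 15.10 to 57.43 TPM, the last in RhoB-/- replicate 5. Without that library, 9 of 11 lymphocyte, 1 of 6 myeloid (Cd68) and 1 of 4 stromal (Dcn) markers were higher. Cd68, Tyrobp, Cd8a and Itgae had WT means under 1 TPM and passed the filter on low values only through their RhoB-/- libraries. With all 10 libraries and no filter, 11 of 22 lymphocyte, 1 of 16 myeloid and 0 of 14 stromal markers were higher. The part of these cells in the rise of the members was not tested.

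Genes around the members were counted as well. Within 250 kb of a member 26 other genes were tested, of which 9 were higher and 1, Rack1, a scaffold protein on the ribosome, was lower (-0.59), which was not called without RhoB-/- replicate 5, where 9 of 26 were higher. Without the 2 listed family genes, 7 of 24 were higher and the median log2 fold change was 0.00. The largest was Ifi47 (Irg47), itself a GTPase of this family that the list of names did not hold, which rose from 3.75 ± 1.79 to 56.9 ± 13.1 TPM (log2 fold change 3.66, SE 0.25, adjusted p = 1.69e-06). It was followed by Gm8714 near Iigp1 (1.72, adjusted p = 0.0191 in limma, and 0.0532 without the filter) and Lypd8 near Irgm2 (1.65), a protein of enterocytes that keeps bacteria off the epithelium. Olfr56 (1.60), an olfactory receptor gene chosen here after its value was seen, spans Tgtp1, Tgtp2 and Ifi47 on the annotation. It is on the plus strand, as is Ifi47, whereas Tgtp1 and Tgtp2 are on the minus strand. Where exons overlap, its reads cannot be told apart from those of Ifi47, nor from those of Tgtp1 and Tgtp2 if strand is not used.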

How the data were processed

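Paired-end RNA libraries were made from colonic IECs, 1 for each of 5 WT and 5 RhoB-/- mice. The authors trimmed reads with SeqPrep and Sickle, and the submitters' processing notes name HISAT2, StringTie, RSEM and the build GRCm38.p6. Tool versions and the annotation release are not given in the sources used here. The deposited values are TPM for each gene and library, with 2 decimals. Because TPM holds no depth, no counting error is given.

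Genotypes were compared with limma 3.58.1 (R 4.3.3; lmFit and eBayes with trend) on log2(TPM + 1) over the 12870 genes whose TPM averaged 1 or more, with Benjamini-Hochberg adjustment over all of them, and tested on simulated data. Adjusted p-values are limma's unless an exact test is named. Calls needed a fold change above 1.5 at an adjusted p below 0.05. Genes below the filter and ratios between members were compared by two-sided exact permutation over all labellings. Positions are from GENCODE M21, in which 55141 of 55487 identifiers were found, and promoters from RefSeq.

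Named were the 6 members, Rhob, listed family genes, genes of the interferon gamma cascade (Ifngr1, Ifngr2, Jak1, Jak2, Irf1 and Ifng, with 1 more that is not reported here), the 4 largest changes of each other list, the 5 genes most like the members and the 3 largest changes within 250 kb. Any other gene was named after its values were seen. Members and lists were chosen with earlier results of these data known. Both genotypes carry replicate numbers 1 to 5 but are different mice. Alternatives were a pseudocount of 0.1, no filter, a mean TPM of at least 5, quantile normalization, recentring, no trend, a fold change above 2, a replicate block, each library left out, and Tgtp1 and Tgtp2 summed. Marker lists, neighbours, shares and correlations without RhoB-/- replicate 5 were added after seeing the data.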

Additional observations from a re-analysis of the deposited data

Results flagged for a closer look

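In 14 groups of 5 libraries examined (the 6 members and Rhob in each genotype), 3 held a library far from the other 4 by Dixon's 95% criterion, and chance marks about 1 in 20 groups. Igtp had a TPM of 10.02 in WT replicate 3, against 3.15 to 4.65 in the other WT libraries. Tgtp1 had a TPM of 1.06 in the same library, against 0.15 to 0.39 in the others. WT replicate 3 was also the highest WT library for the other 4 members, and without it the log2 fold changes remained called for all 6. Rhob had a TPM of 110.87 in the library labelled RhoB-/- replicate 5, against 0.09 to 0.57 in the other RhoB-/- libraries, and the cause was not tested.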

How the results depend on the processing

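All members that could be tested were called higher under every alternative: 6 of 6 in each, except 4 of 4 with a mean TPM of at least 5, where Tgtp1 and Tgtp2 fell below the filter, and 5 of 5 with Tgtp1 and Tgtp2 summed. Leaving out each library in turn left 6 called, with log2 fold changes of 2.19 to 2.33 (Irgm1), 2.49 to 2.67 (Irgm2), 3.01 to 3.36 (Igtp), 2.64 to 3.23 (Iigp1), 1.48 to 2.12 (Tgtp1) and 1.52 to 1.94 (Tgtp2), and a highest limma adjusted p of 0.0319 (Tgtp1). Genes called in the 7 pathway lists numbered 61, with 57 to 63 when 1 library was left out and 54 to 66 over the other alternatives. Pairs of members whose ratio passed the test numbered 4, with 3 to 5 in the alternatives, but not always the same pairs. Only Iigp1 to Tgtp1 and Iigp1 to Tgtp2 passed in all 12 alternatives. The replicate numbers did not pair the mice: same-numbered libraries correlated between -0.09 and 0.07, 1 of 5 best with its own number, and with the replicate block 6 members and 61 pathway genes were called. Other family genes called went from 2 to 4 without the filter, GBPs from 6 to 3 at a mean TPM of at least 5, where fewer were tested, and autophagy genes from 4 to 1 at a fold change above 2. Over the 43 genes of the naming rule no direction was reversed under any alternative, 735 values kept their side of the threshold, 27 lost a call and 6 gained one, and no member was among these. The unknown depth limits the effectors in WT most, where TPM had 2 decimals and values of 0.08 to 1.14.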
